A study of Homo sapiens with 6 samples.

Results

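The nuclear-encoded subunits of the mitochondrial respiratory chain and ATP synthase were examined in HCT116 cells, a human colorectal carcinoma line, after PLEK2 knockdown. Members were taken by gene symbol alone: CYC1, CYCS, the SDHA to SDHD genes, and symbols that begin with UQCR, COX4 to COX8, ATP5, or NDUF followed by A, B, C, S or V and a number. The rule found 85 of 17047 genes, and 81 of them had enough counts to be tested. By symbol, 37 belonged to complex I, 4 to complex II, 9 to complex III, 15 to complex IV and 19 to complex V, and CYCS stood alone.

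RNA sequencing was carried out on 6 libraries, 3 from cells carrying a non-targeting shRNA (shNC) and 3 from cells carrying PLEK2 shRNA, to learn which transcripts change when PLEK2, a membrane and cytoskeletal protein, is depleted. All cells were transduced with a viral shRNA vector, and the study lists 1 shRNA sequence against PLEK2, so an effect of that sequence and an effect of PLEK2 loss cannot be told apart. Poly(A) RNA was read as single ends of 50 bases, and estimated counts per library totalled between 14377532 and 15602732. In bulk RNA, fewer cells of a kind and less RNA per cell cannot be told apart.

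The respiratory chain sits in the inner mitochondrial membrane. Complex I oxidises NADH and complex II oxidises succinate, complex III passes the electrons to cytochrome c, complex IV hands them to oxygen, and complex V uses the resulting proton gradient to make ATP. Most subunits are encoded in the nucleus and imported, while a small core of complexes I, III, IV and V is encoded by mitochondrial DNA. None of the mitochondrially encoded subunits looked for was found by symbol among the 17047 genes, so they were not analysed here.

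PLEK2 itself measured 86.0, 72.6 and 82.9 CPM (counts scaled to the library total times its TMM factor) in shNC replicates 1 to 3 and 16.0, 32.2 and 35.0 CPM in PLEK2 shRNA replicates 1 to 3. The groups did not overlap, and the log2 fold change was -1.54 (SE 0.24). The adjusted p was 0.684 in edgeR's quasi-likelihood test and 0.00106 with the replicate number as a block (log2 fold change -1.57, SE 0.17). Of the 8 epithelial markers found, 6 had a mean above 1 FPKM (a count scaled to transcript length and library total). None of 3 leukocyte and none of 3 endothelial markers did, and 1 of 2 fibroblast markers did.

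Many genes of the chain are known targets of nuclear respiratory factor 1 (NRF1), so the core of its motif, GCGCATG, was searched on both strands of RefSeq promoters (GRCh38.p14, 250 bases before to 50 after the start site). Promoters were matched for 69 of the 85 members. The core was held by 15 of them (21.7%), against 6.46% of 13387 promoters of genes in the table. Stretches around it are shown for members whose values are described in detail here, with the core in capitals and as CATGCGC where it lies on the other strand.
SDHB: agccaaatgggCATGCGCcgctactgcgct
SDHD: cagctgtgtttGCGCATGcgcgacgggtgt
NDUFS7: tccggtttccgCATGCGCtccgagccgctt
COX5B: gcagagctgggCATGCGCaatttccgcccc
ATP5PF: ccactcaaagaGCGCATGcgtacagagcaa
CYCS: atgctcgccagCATGCGCgcgcaggtcctt
They lie at chr1:17054213-17054242 (minus strand) for SDHB, chr11:112086752-112086781 (plus) for SDHD, chr19:1383824-1383853 (plus) for NDUFS7, chr2:97645916-97645945 (plus) for COX5B, chr21:25735156-25735185 (minus) for ATP5PF and chr7:25125410-25125439 (minus) for CYCS. Counted from the start site, the core began at base -72 in NDUFS7 and at base -199 in SDHB, with the others between them. The ETS motif CCGGAAG, searched on both strands, was found in 20 of the 69 promoters (29%), among them SDHB, SDHD, COX5B and ATP5PF, against 16.1% of the genes in the table, and TATAAA in 6 (8.7%), against 7.45%. A match describes these letters and is not a measured binding site.

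The subunits were abundant. Their median level was 113 FPKM over the 6 libraries, against 10.2 FPKM over all genes tested, and 45 of the 81 had a mean above 100 FPKM. Their summed share of all counts was 0.865%, 0.879% and 0.969% for shNC and 0.928%, 0.897% and 0.932% for PLEK2 shRNA. The group means of this share were 0.904% ± 0.056 and 0.919% ± 0.019 (SD, n = 3 each), and the groups overlapped.

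**Figure D1:**
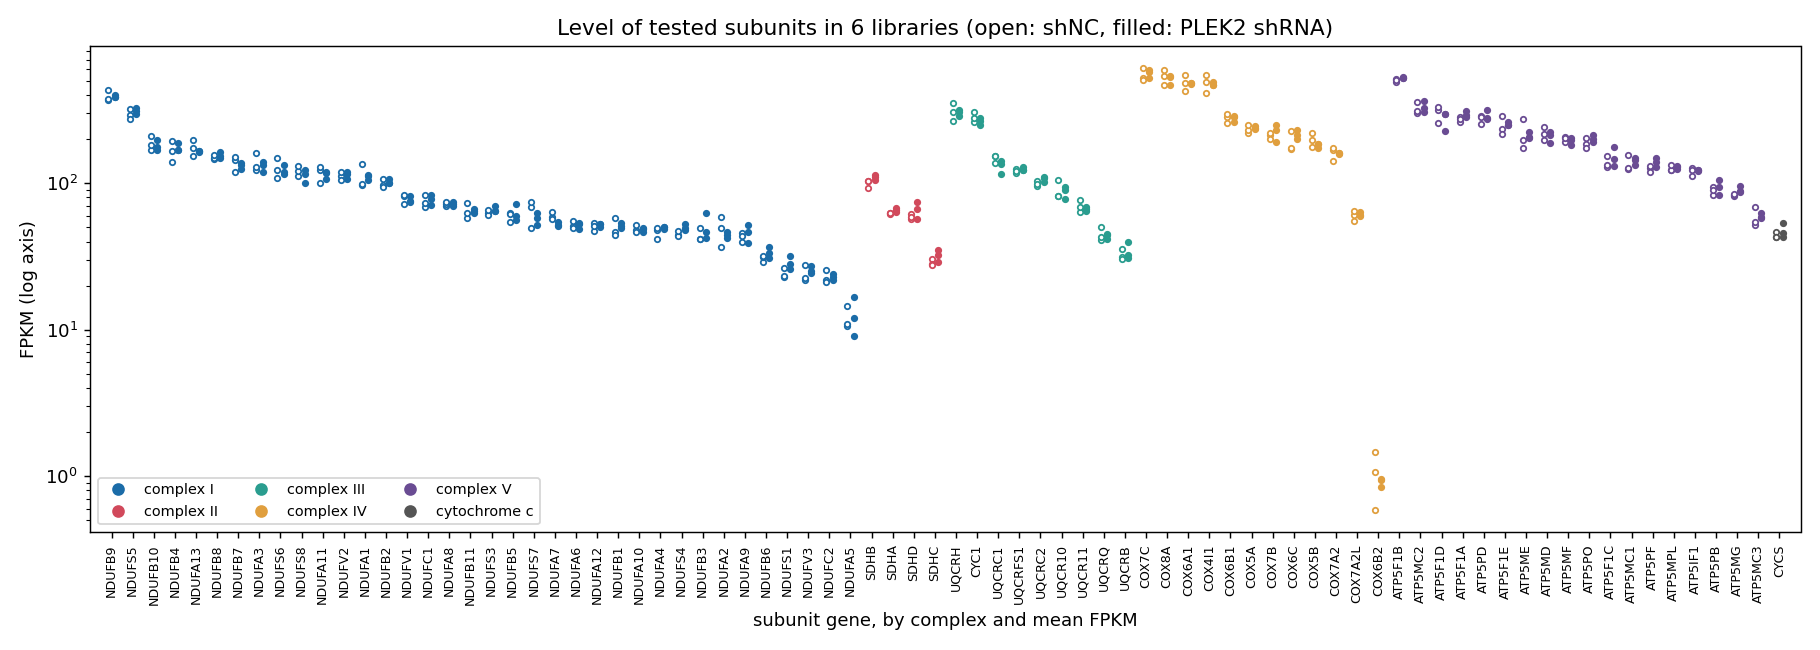
Level of 80 of the 81 tested subunits in FPKM (log axis) in the 3 shNC libraries (open points) and the 3 PLEK2 shRNA libraries (filled points), grouped by complex and ordered by mean. The 2 groups overlap for most genes, complexes IV and V hold the highest levels, and COX6B2 stands alone near 1 FPKM.

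By complex, the median level per length was 64.6 FPKM in complex I, 63.4 FPKM in complex II, 103 FPKM in complex III, 196 FPKM in complex V and 228 FPKM in complex IV. The ranges of all 5 complexes overlapped, and members of one complex differed widely although each holoenzyme holds fixed numbers of most of them. In complex I they ran from 12.3 FPKM for NDUFA5 to 394 FPKM for the accessory subunit NDUFB9. In complex II the iron-sulfur subunit SDHB measured 105 ± 7.4 FPKM and the membrane anchor SDHC 30.5 ± 2.9 FPKM (SD, n = 6). Above 480 FPKM on average stood COX7C (557), COX8A (526), COX6A1 (486) and COX4I1 (481), all of complex IV, and ATP5F1B (517), the catalytic beta subunit of ATP synthase. CYC1, the cytochrome c1 of complex III, measured 274 ± 20.1 FPKM, and the soluble carrier CYCS 45.8 ± 4.4 FPKM.

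Where complex IV has tissue-specific isoforms, the ubiquitous one supplied nearly all transcripts. COX4I2 gave 0.0% of COX4 FPKM in shNC and 0.011% with PLEK2 shRNA, and COX7A1 gave 0.022% and 0.0% of COX7A. COX8C gave 0.032% and 0.045% of COX8, and COX6B2 gave 0.362% and 0.328% of COX6B (means of 3 libraries). The 4 members left out of the tests were the isoforms COX4I2, COX7A1 and COX8C and the ATP5MG-like gene ATP5MGL, with 1, 1, 7 and 2 counts over all 6 libraries. COX6B2, known from testis, was tested on 132 counts in all.

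ATP5MC1, ATP5MC2 and ATP5MC3 encode the same mature c-ring subunit of ATP synthase, and the mix of them was steady. ATP5MC2 gave 59.3%, 63.6% and 64.6% of their FPKM in shNC and 59.4%, 63.3% and 64.0% with PLEK2 shRNA. ATP5MC1 followed with means of 26.3% ± 3.8 and 26.5% ± 1.8, and ATP5MC3 with 11.3% ± 1.1 and 11.2% ± 0.77 (SD, n = 3 each). The order of ATP5MC1 and ATP5MC3 rests on the length scaling. In CPM, which is not scaled to length, ATP5MC3 averaged 149 and ATP5MC1 60.6 in shNC. The groups overlapped for each gene, with exact permutation p of 0.8, 0.8 and 1.0 (two-sided, 3 genes compared), where 3 against 3 libraries allow no p below 0.1.

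No subunit passed the test between PLEK2 shRNA and shNC. Of the 81, 0 had an adjusted p under 0.05 in edgeR's quasi-likelihood test, against a background of 0.0% of 12959 genes, and 1 had an unadjusted p under 0.05, against 3.09%. With the replicate block, 0 had an adjusted p under 0.05, against 0.849%, and 8 had an unadjusted p under 0.05, which is 9.88% of the 81 against 18.3% of all genes. Of these 8, 1 was higher with PLEK2 shRNA, against 7.89% of all genes, and 7 were lower, against 10.4%. DESeq2's Wald test called 12 genes and no subunit among them. The log2 fold changes ran from -0.23 to 0.23 around a median of -0.01, 38 above 0 and 43 below.

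**Figure D2:**
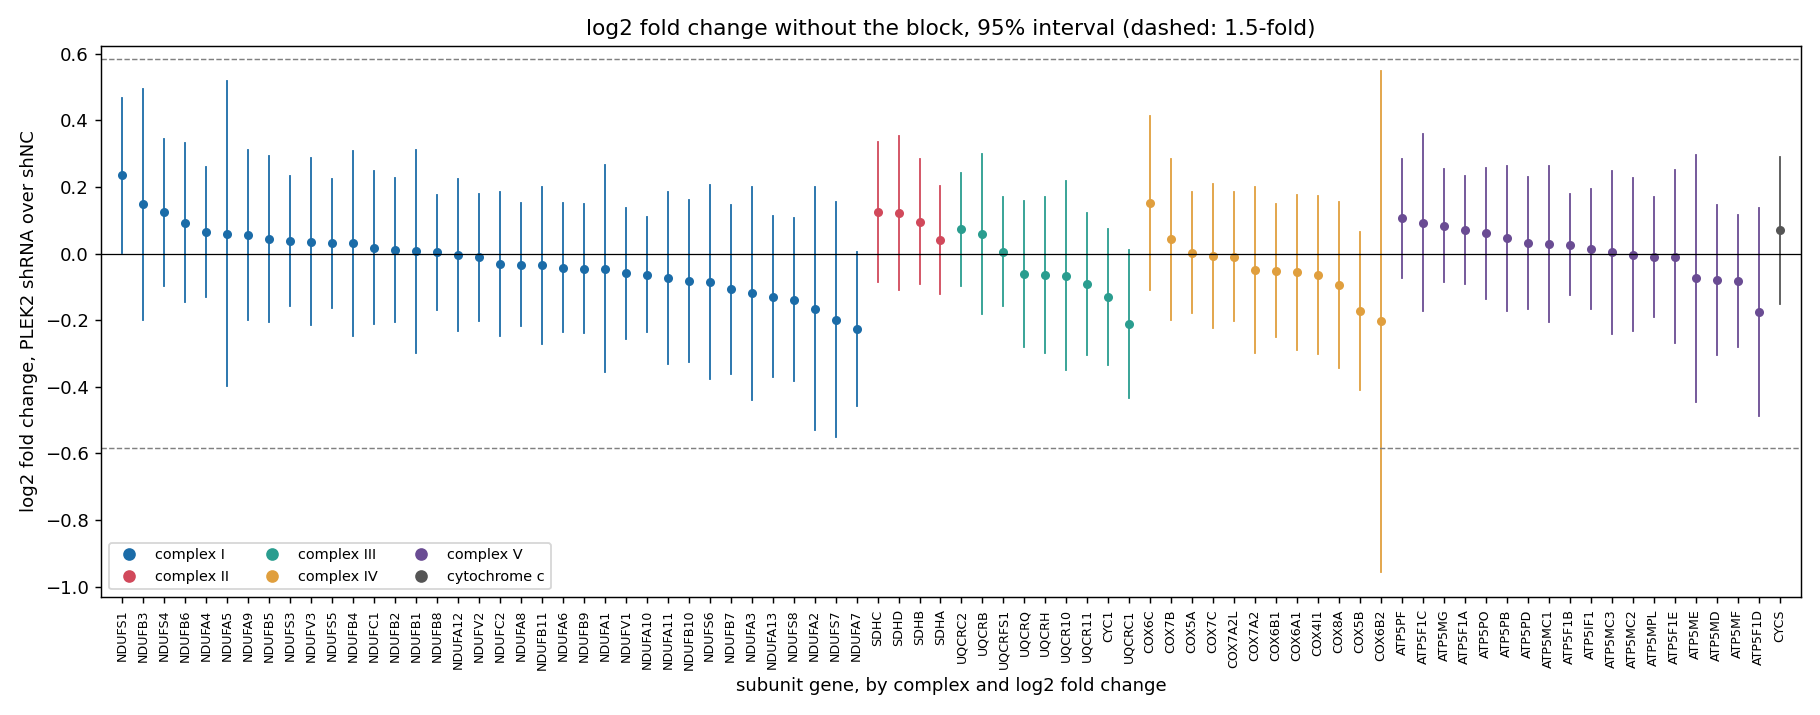
Log2 fold change of PLEK2 shRNA over shNC for 80 of the 81 tested subunits in edgeR's fit without the block, by complex, with 95% intervals as bars and 1.5-fold marked by dashed lines. Every interval drawn but that of COX6B2 lies inside the dashed lines, and only NDUFS1 has an interval that does not include 0.

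The intervals were narrow. For 80 of the 81 subunits (98.8%) the 95% interval of the fold change lay within 1.5-fold in either direction, while this held for 75.7% of all genes tested. The exception among the subunits was the thinly covered COX6B2. For 78 mitochondrial and 78 cytosolic ribosomal proteins the share within 1.5-fold was 98.7% and 100%. The coefficient of variation over the 6 libraries had a median of 8.31% among subunits and 11.1% among all genes. For mitochondrial and cytosolic ribosomal proteins the median was 7.52% and 6.35%. Among the subunits the coefficient was lowest for ATP5F1B at 2.12% and highest for COX6B2 at 29.4% and NDUFA5 at 20.9%.

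In complex I, which carries electrons from NADH through a flavin and a chain of iron-sulfur clusters, the 37 subunits had a median log2 fold change of -0.03, 16 above 0 and 21 below. The median was -0.06 for the 7 core subunits and -0.02 for the 30 accessory ones. NDUFS1, the largest core subunit and holder of several iron-sulfur clusters, measured 76.7, 65.7 and 64.9 CPM in shNC and 89.2, 76.0 and 78.7 CPM with PLEK2 shRNA. The knockdown library was the higher of each same-numbered pair, although shNC replicate 1 lay just above PLEK2 shRNA replicate 2. Its log2 fold change was 0.23 (SE 0.10, adjusted p = 0.968), and 0.24 (SE 0.06, adjusted p = 0.0695) with the block. Without replicate 1 the blocked fit called NDUFS1, NDUFA2 and NDUFS7, 3 subunits, where 4.06% of all genes were called. In the pair left out NDUFA2 went the other way, with log2 ratios of 0.27, -0.23 and -0.46 in pairs 1 to 3. Over all libraries NDUFA2 was at -0.17 (SE 0.16), and its adjusted p was 0.509 with the block. NDUFS1 lies at chr2:206114817-206159509 on the minus strand (GRCh38, GENCODE 44).

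NDUFA7, an accessory subunit, was the only member whose shNC libraries all lay above the knockdown ones, with 24.4, 23.4 and 26.5 CPM against 20.4, 21.0 and 22.0 CPM. Its log2 fold change was -0.23 (SE 0.10, adjusted p = 0.968), and the adjusted p was 0.165 with the block. NDUFS7 and NDUFS8, core subunits that hold iron-sulfur clusters on the way to ubiquinone, had log2 fold changes of -0.20 (SE 0.16) and -0.14 (SE 0.11). Without single libraries NDUFS7 ran from -0.34 (without shNC replicate 1) to -0.07 (without shNC replicate 3). NDUFS7 measured 34.7, 47.9 and 52.1 CPM in shNC and 34.7, 40.0 and 42.7 CPM with PLEK2 shRNA, so that the replicates 1 were level and the knockdown was lower in the others. Of the other core subunits, NDUFV1, NDUFV2 and NDUFS3 lay between -0.06 and 0.04. NDUFS4 had no overlap between groups, with 23.6, 23.1 and 25.3 CPM against 27.2, 25.4 and 25.8 CPM, a log2 fold change of 0.12 (SE 0.10). NDUFA4, grouped here by its symbol although it is now counted with complex IV, was at 0.06 (SE 0.09) on that scale.

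**Figure D3:**
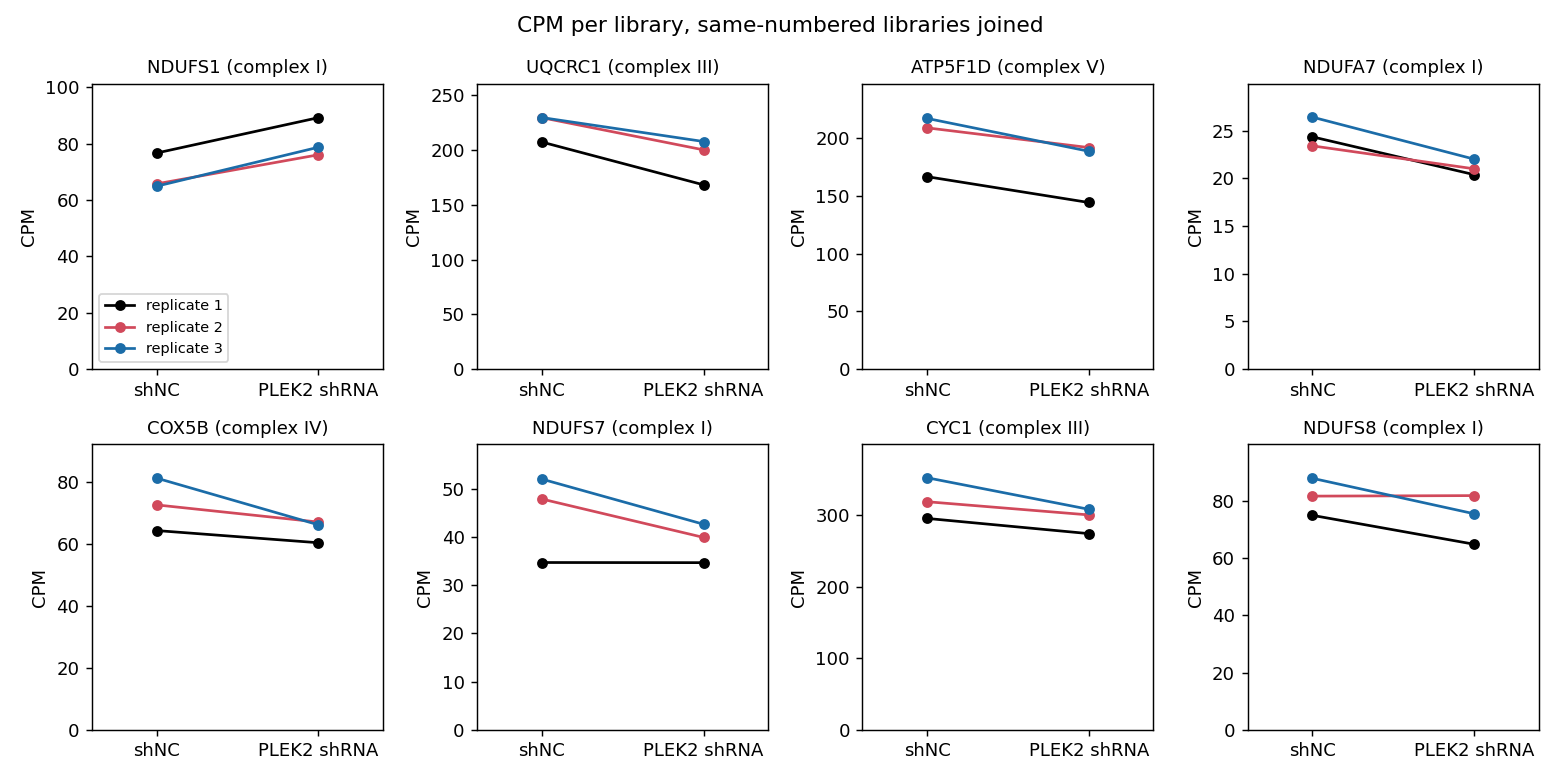
CPM in each library for the 8 subunits with an unadjusted p under 0.05 in the fit with the replicate block, with same-numbered shNC and PLEK2 shRNA libraries joined by lines and axes from 0. NDUFS1 is higher with PLEK2 shRNA on all 3 lines, and the other 7 slope down or run level. For all but NDUFA7, the largest difference between replicates of the same group is at least as large as that between group means.

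Complex II, which is also an enzyme of the citric acid cycle and has no mitochondrially encoded subunit, had all 4 genes above 0, with a median log2 fold change of 0.11. SDHA, the flavoprotein, measured 175, 178 and 175 CPM in shNC and 173, 184 and 187 CPM with PLEK2 shRNA. SDHB measured 107, 94.9 and 106 CPM and then 113, 106 and 111 CPM. The groups overlapped for both.

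The membrane anchors are SDHC and SDHD. SDHC measured 83.4, 77.1 and 75.1 CPM in shNC against 92.6, 77.9 and 86.4 CPM, and SDHD 78.0, 72.1 and 74.6 CPM against 90.5, 71.4 and 82.7 CPM. In both the replicates 1 and 3 were higher with PLEK2 shRNA and the replicates 2 were level, and the groups overlapped. The log2 fold changes were 0.04 for SDHA, 0.10 for SDHB, 0.13 for SDHC and 0.12 for SDHD (SE 0.07 to 0.10), with an adjusted p of 0.968 for each, and of 0.287 or more with the block. SDHB and SDHC were higher with PLEK2 shRNA in all 3 pairs. With a GC trend removed SDHD moved to 0.04 and the median of the 4 to 0.06.

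Complex III, the cytochrome bc1 complex, had a median of -0.06, 3 above 0 and 6 below. UQCRC1, a core protein on its matrix side, measured 207, 230 and 230 CPM in shNC and 168, 200 and 208 CPM with PLEK2 shRNA. Each knockdown library lay below its same-numbered control, and only the highest knockdown library reached the lowest control. Its log2 fold change was -0.21 (SE 0.10, adjusted p = 0.968), and the adjusted p was 0.0779 with the block (SE 0.05). It lies at chr3:48599002-48610976 on the minus strand.

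The partner core protein UQCRC2 had a log2 fold change of 0.07 (SE 0.07) and the Rieske iron-sulfur protein UQCRFS1 of 0.01 (SE 0.07). CYC1 measured 296, 319 and 353 CPM in shNC and 275, 301 and 309 CPM with PLEK2 shRNA, a log2 fold change of -0.13 (SE 0.09) with overlapping groups. The small subunit UQCR11 was at -0.09 (SE 0.09) and UQCRH, the hinge protein, at -0.06 (SE 0.10). CYCS, which ferries electrons from this complex to the next, measured 257, 236 and 231 CPM against 286, 231 and 244 CPM, a log2 fold change of 0.07 (SE 0.10).

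Complex IV, cytochrome c oxidase, had a median of -0.05, 3 above 0 and 9 below. COX6C, a small membrane subunit, measured 86.4, 87.1 and 112 CPM in shNC against 112, 101 and 104 CPM, and a single control library, replicate 3, matched the knockdown level. Its log2 fold change was 0.15 (SE 0.11, adjusted p = 0.968), and it passed with the block only when replicate 3 was left out (0.31, adjusted p = 0.0161), where 2.29% of all genes were called. COX5B measured 64.4, 72.7 and 81.4 CPM against 60.5, 67.2 and 66.3 CPM, a log2 fold change of -0.17 (SE 0.10), with each knockdown library below its same-numbered control and the groups overlapping. COX8A was at -0.09, COX4I1 at -0.06, COX6A1 at -0.06, COX6B1 and COX7A2 at -0.05, and COX7A2L, COX5A and COX7B between -0.01 and 0.04. The most abundant transcript, COX7C, was at -0.01 (SE 0.10).

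Complex V had a median of 0.02, 11 above 0 and 7 below. In the catalytic F1 head, ATP5F1B measured 889, 851 and 874 CPM in shNC and 867, 897 and 899 CPM with PLEK2 shRNA, and its log2 fold change was 0.03 (SE 0.07). ATP5F1D, the delta subunit of the central stalk, measured 167, 209 and 217 CPM against 144, 192 and 189 CPM. The replicates 1 were lowest in both groups and each knockdown library was below its control, with a log2 fold change of -0.18 (SE 0.14, adjusted p = 0.968), and an adjusted p of 0.111 with the block (SE 0.05). Without single libraries it ran from -0.27 (without shNC replicate 1) to -0.05 (without PLEK2 shRNA replicate 1). The gene lies at chr19:1241746-1244825 on the plus strand.

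All 4 peripheral stalk genes were above 0, with a median of 0.05, but with a GC trend removed ATP5PB was at -0.04 and ATP5PD at -0.01, and ATP5PF moved to 0.03. Among them ATP5PF had no overlap, with 95.1, 91.0 and 97.6 CPM against 107, 97.6 and 101 CPM, but the highest control and the lowest knockdown library were nearly level. ATP5MG, a small membrane subunit, measured 98.8, 101 and 102 CPM against 111, 104 and 105 CPM. The log2 fold changes were 0.11 (SE 0.08) for ATP5PF and 0.08 (SE 0.07) for ATP5MG. With NDUFS4 they made 3 members with all knockdown libraries above all controls, and NDUFA7 was the 1 with all below, against 4.08% and 5.11% of all genes tested. ATP5IF1, the inhibitor of ATP hydrolysis, was at 0.01 (SE 0.08).

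**Figure D4:**
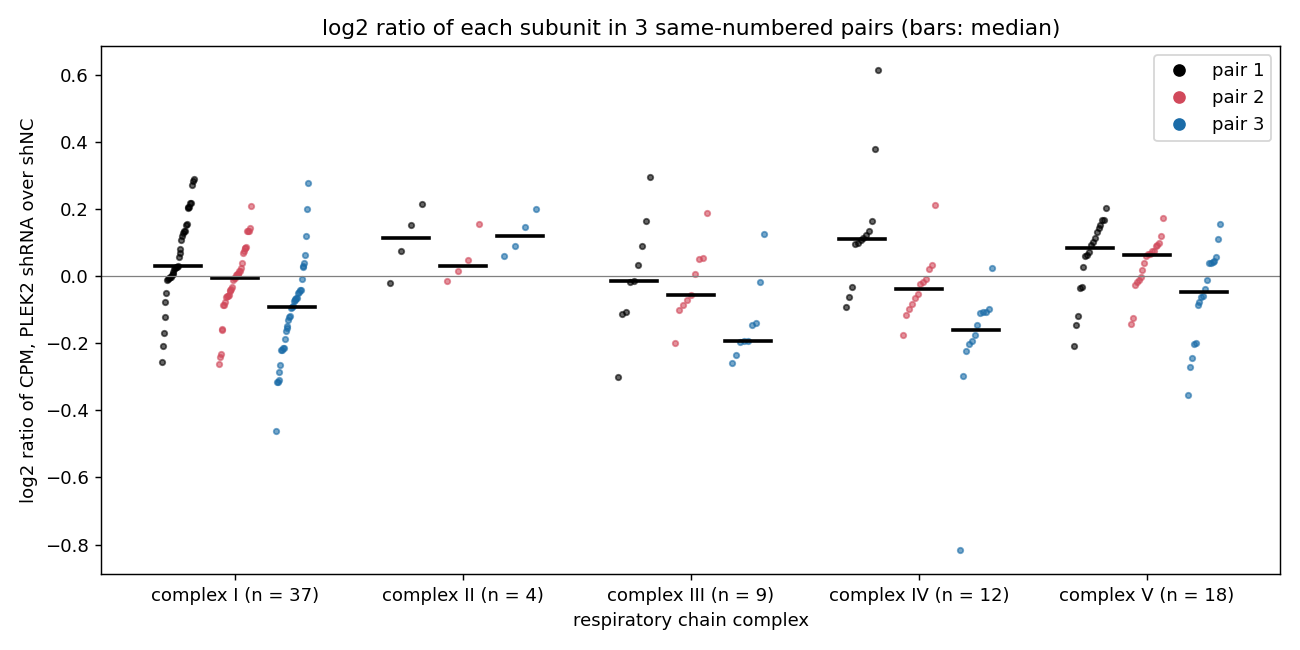
Log2 ratio of CPM, PLEK2 shRNA over shNC, of each subunit in each of the 3 same-numbered pairs, by complex, with a bar at the median. In complexes I, III, IV and V the bar is highest in pair 1 and lowest in pair 3, and only in complex II are all 3 bars above 0.

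The same-numbered pairs did not move alike. The median log2 ratio over the 81 subunits was 0.07 in pair 1, with 56 above 0, -0.003 in pair 2, with 40 above 0, and -0.09 in pair 3, with 21 above 0. In complex IV the medians were 0.11, -0.04 and -0.16, and in complex II 0.11, 0.03 and 0.12. Over all genes tested the medians were 0.001, -0.004 and -0.001, which the TMM scaling holds near 0, and over 78 cytosolic ribosomal proteins they were 0.04, -0.01 and -0.14. Replicate 1 lay below the mean of replicates 2 and 3 in 60 of 81 subunits in shNC (median -0.12) and in 37 with PLEK2 shRNA (median 0.03). For cytosolic ribosomal proteins this held in 71 of 78 (median -0.16) and 52 of 78 (median -0.06), and for all genes tested in 6527 and 6854 of 12959. Members above 0 in all 3 pairs numbered 8, against 19.9% of all genes tested, and members below 0 in all 3 numbered 14, against 21.1%.

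The fold changes followed the GC content of the transcripts. Across the 81 subunits, whose values come from the same 6 libraries and which are not independent replicates, GC content and log2 fold change with the block correlated at r = -0.71 (Spearman -0.72), and across 12330 genes tested at -0.44 (Spearman -0.54). Within pairs 1 to 3, r among the subunits was -0.52, -0.38 and -0.44. Between control libraries alone, shNC replicate 1 over replicates 2 and 3, it was -0.52, and between the knockdown libraries split in that way -0.77. Over all genes tested r was -0.29, -0.25 and -0.37 within pairs 1 to 3. For the same splits of the control and knockdown libraries it was -0.60 and -0.61 over all genes.

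Of the 27 subunits with the lowest GC content (34.6% to 44.2%), 22 lay above 0 with the block (median log2 fold change 0.05), and of the 27 with the highest (52.7% to 69.5%), 23 lay below 0 (median -0.08). Over all genes tested in the same GC ranges the medians were 0.08 and -0.08. Of the 8 subunits with an unadjusted p under 0.05 with the block, 6 were in the highest range, which is 22.2% of its subunits against 21.7% of all genes in that range. The lowest range held 1 of the 8, 3.70% of its subunits against 20.4% of all genes there. The middle range (44.9% to 52.5%) also held 1, 3.70% against 10.5%. With a linear GC trend removed from each library, an alternative chosen after seeing the data, 0 had an adjusted p under 0.05, against 0.344% of all genes, and 4 had an unadjusted p under 0.05, against 9.85%. These were NDUFS1 at 0.17 (SE 0.05), NDUFA7 at -0.18 (SE 0.08), UQCRC1 at -0.15 (SE 0.05) and COX5B at -0.15 (SE 0.06). ATP5F1D moved from -0.18 to -0.02 and NDUFS7 from -0.19 to -0.05. The part of GC content in each result was not tested beyond these values.

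Genes that build or regulate the chain were read from lists outside the rule. Of 52 assembly factors, 0 passed with or without the block (median log2 fold change 0.01), and the 3 with the smallest p were COA7 at -0.24 (SE 0.07), TMEM70 at -0.18 (SE 0.07) and SDHAF3 at 0.22 (SE 0.09) with the block. Of 11 regulators of mitochondrial gene expression, 0 passed without the block, against 0.0% of all genes tested, and 1 passed with it, against 0.849%. This was POLRMT, the mitochondrial RNA polymerase, at 235, 317 and 331 CPM in shNC and 194, 271 and 278 CPM with PLEK2 shRNA. It was lower in each same-numbered pair, although the groups overlapped, with a log2 fold change of -0.25 (SE 0.17, adjusted p = 0.968), and an adjusted p of 0.0460 with the block (SE 0.05). Replicate 1 was the lowest of each group, as for ATP5F1D, and the part of GC content in the POLRMT fold change was not tested.

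The nuclear receptor ESRRA, which activates many genes of oxidative metabolism, measured 46.8, 51.2 and 58.5 CPM against 32.5, 47.3 and 46.0 CPM. Its log2 fold change was -0.32 (SE 0.15, adjusted p = 0.968), and -0.33 (SE 0.08, adjusted p = 0.0695) with the block. TFAM, which packages mitochondrial DNA and acts in its transcription, measured 58.2, 45.3 and 41.1 CPM against 66.5, 50.9 and 53.4 CPM. It was at 0.24 (SE 0.15, adjusted p = 0.968) without the block and at 0.24 (SE 0.06, adjusted p = 0.0907) with it. The part of GC content in the fold changes of ESRRA and TFAM was not tested. Of 78 mitochondrial ribosomal proteins, 0 passed with or without the block, with a median of -0.02, and of 78 cytosolic ribosomal proteins 0 passed, with a median of -0.05 and 64 below 0. Of 3 genes listed beside the subunits that the symbol rule does not take, 2 had enough counts to be tested. These were NDUFAB1 at 0.03 (SE 0.09) and STMP1 at 0.09 (SE 0.09).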

How the data were processed

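The 6 HCT116 RNA libraries, 3 per group, had their groups and replicate numbers read from the submitters' labels. The authors deposited unnormalized estimated counts for each gene, some with decimals, and values scaled to length and library total whose header gives no unit. These deposited values were read as FPKM because they returned the count totals. The group means the authors deposited were not used, and 0 columns of single samples were left unassigned. The submitters' processing notes name HISAT2 2.0.4, Bowtie2 2.2.5, RSEM 1.2.12, DESeq2 1.4.5 and the mouse build GRCm38.p6, although the genes are human. Use of strand in counting is not given in the sources used here. Of the members, 50 have named pseudogenes in GENCODE 44 (CYCS 42, COX6C 17), so some reads may have been shared, and 7 had a count that was not whole in at least 1 library.

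Counts were rounded, filtered (filterByExpr defaults, 12959 of 17047 genes kept), scaled by TMM (factors 0.984 to 1.02) and tested with the quasi-likelihood test of edgeR 4.0.16, with Benjamini-Hochberg adjustment over all genes tested. The SE of a log2 fold change is the ratio of its size to the square root of F. CPM values use library totals scaled by TMM. The NRF1 core replaced a longer form of the motif that was searched first. FPKM share comparisons used the two-sided exact permutation test. Nothing in the labels says that libraries came from separate cultures, so p-values measure the spread between these libraries, which may be technical. GC content is that of the canonical GENCODE 44 transcript.

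The replicate numbers pair the libraries: deviations from group means over 10161 genes correlated at 0.736, 0.558 and 0.554 between same-numbered libraries and between -0.629 and 0.358 otherwise. These correlations and the numbering are the grounds for pairing, and neither labels nor paper state a shared day. Members, lists, the roles within complexes and the GC ranges were chosen with earlier results of these data known.

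Genes were named by rule: PLEK2, subunits with an adjusted p under 0.05 in either fit, in complexes I, III, IV and V the 3 of smallest p and the highest FPKM, complex II, CYC1, CYCS, isoform families, and up to 3 genes of each other list. Other genes were named after their values were seen. The single values of 1 subunit are not reported here. Alternatives were DESeq2 size factors, library totals, other filters, DESeq2 1.42.0, limma 3.58.1 on log2(FPKM + 1), the block, length and GC trends, and leaving out each replicate. Scripts were tested on simulated counts. R 4.3.3, Python 3.11.15, numpy 2.4.6, pandas 2.3.3 and scipy 1.17.1 were used.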

Additional observations from a re-analysis of the deposited data

How the results depend on the processing

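The median log2 fold changes of all subunits and of complexes II, IV and V moved by less than the spread between pairs under every alternative run. Within that spread some of them turned sign. Complex IV, with the widest spread between pairs (SD 0.14), went from -0.051 to 0.050 without shNC replicate 3. It was at -0.12 without shNC replicate 1 and at 0.016 with the length trend removed. Complex V went from 0.020 to -0.019 without PLEK2 shRNA replicate 1. With the GC trend removed complex II was at 0.063 and complex V at -0.0054. The replicate block raised the subunits with an unadjusted p under 0.05 from 1 to 8, while the share of all genes rose from 3.09% to 18.3%. The block with library totals gave 11 (19.9% of all genes), with DESeq2 3 (6.73%) and with the length trend removed 13 (19.3%). With the GC trend removed, chosen after seeing the data, the block gave 4 (9.85%), while limma gave 2 (3.60%). The block with library totals called 1 subunit at an adjusted p under 0.05, NDUFS1 (0.27, adjusted p = 0.0401, 1.48% of all genes called). PLEK2 passed with DESeq2 (-1.53), with the block (-1.57), and with the block plus library totals (-1.54), DESeq2 (-1.60), the length trend removed (-1.54) or the GC trend removed (-1.53). The block alone changed no other call among the genes named, apart from POLRMT.

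Leaving out 1 library without the block gave 0 subunits past the adjusted p. It gave 0 to 5 past the unadjusted p, against 1.41% to 8.66% of all genes. PLEK2 ran there from -1.74 to -1.26 (passing only without PLEK2 shRNA replicate 1). Medians ran from -0.035 to 0.054 for all subunits, -0.043 to 0.042 for complex I and -0.11 to 0.033 for complex III, each highest without shNC replicate 3. Leaving out 1 pair with the block gave 0 to 3 subunits past the adjusted p, where 18 to 528 of all genes passed. It gave 6 to 14 subunits past the unadjusted p, against 11.7% to 19.3% of all genes. PLEK2 ran there from -1.78 to -1.21 (-1.74 without replicate 3). The 3 subunits past the adjusted p were NDUFA2 (-0.34, adjusted p = 0.0224), NDUFS1 (0.25, adjusted p = 0.0210) and NDUFS7 (-0.27, adjusted p = 0.0303) without replicate 1. COX6C was called without replicate 3. Complex I ran from -0.058 to 0.041 and complex III from -0.12 to 0.028 there, and complex I was at 0.037 with the length trend removed.

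With the GC trend removed, 20 of the 81 subunits turned sign against the block alone. COX7C turned with DESeq2 size factors (0.0022), library totals (0.025), the filters of at least 1 count in all (0.0036) and 10 in every library (0.0036), DESeq2 (0.0023), limma (0.044), and the block with library totals (0.029), DESeq2 (0.0065) or the length trend removed (0.079), and ran from -0.049 to 0.098 without single libraries. With the length trend removed NDUFB9 (0.015) and UQCRH (0.0054) turned, and with the GC trend removed ATP5MG (-0.0039) and CYCS (-0.0047). Without single libraries NDUFB9 ran from -0.077 to 0.040, UQCRH from -0.14 to 0.049, COX8A from -0.17 to 0.0045, COX5B from -0.24 to -0.076 (without shNC replicate 3), COX6C from 0.10 to 0.30 (without shNC replicate 3), CYC1 from -0.18 to -0.052 (without shNC replicate 3), UQCRC1 from -0.27 to -0.12 (without PLEK2 shRNA replicate 1) and CYCS from -0.024 to 0.13, and with the block and without replicate 3 NDUFB9 was at 0.022, UQCRH at 0.043 and COX7C at 0.081. The causes were not tested. With 3 libraries a group, the half-width of the 95% interval had a median of 0.23 on the log2 scale, and 0.13 with the block.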
